A study of Mus musculus with 6 samples.

Results

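The T-cell receptor complex and its coreceptors were represented by 10 genes. They were the CD3 chains *Cd3g*, *Cd3d* and *Cd3e* with the zeta chain *Cd247*, the coreceptors *Cd8a*, *Cd8b1* and *Cd4*, and the signalling partners *Lat*, *Cd5* and *Cd6*. They were taken by gene symbol from the deposited expression table, which held 10 of the 10 among its 621 genes. The authors had selected those 621 genes on the same libraries: in 621 of 621, some KO library and some WT library, among 9 such pairings, differed by a fold of 2 or more. Every gene in the table thus varied between libraries by selection, and a p-value computed within it is not independent evidence.

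Poly(A) RNA was sequenced from bone marrow (BM) cells from the long bones of the hind limb of C57BL/6 mice aged 8 weeks. There were 3 *Phc2* knockout (KO) libraries with the replicate numbers 4, 8 and 9, called KO4, KO8 and KO9, and 3 wild-type (WT) libraries, called WT1, WT3 and WT7. The Phc2 protein is part of Polycomb repressive complex 1, which keeps genes silent through marks on histones, and the comparison asks which transcripts of the marrow differ in its absence. Mice of both genotypes were bred from *Phc2*+/- parents. The titles and source of the KO samples give a knockout, whereas their genotype field gives a heterozygote, and the samples were grouped by their titles. Since *Phc2* itself was not analysed here, the genotypes were not checked by its transcript. Nothing in the sources says that the libraries are separate mice, and a p-value measures only the spread between these libraries. The RNA *Xist*, described below, was 74.6 FPKM in KO4 and under 1 FPKM in KO8 and KO9. It was 113 and 98.2 FPKM in WT1 and WT3 and under 1 FPKM in WT7. The 3 libraries of a group are thus not all repeats of the same RNA sample. Whether KO8 and KO9, or WT1 and WT3, are separate mice is unknown. The values are FPKM, that is fragments scaled to the exon length of the gene and to all mapped fragments, so that levels can be compared between genes. The number of reads behind them is unknown.

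A T cell recognises a peptide held by an MHC molecule through its T-cell receptor, whose variable chains have no signalling tail of their own. The CD3 chains and the zeta chain assemble with the receptor and carry the phosphorylation motifs that pass the signal inward. CD4 binds MHC class II and CD8 binds MHC class I, and both bring the kinase Lck to the receptor. T cells are made in the thymus, and those of the marrow are mainly mature recirculating and memory cells. Other cells also make some of the transcripts, as given below for *Cd247*, *Cd8a*, *Cd4*, *Lat* and *Cd5*. *Cd4* over *Cd3e* in FPKM ran from 1.2 in WT7 to 7.95 in WT1, and *Lat* over *Cd3e* from 2.31 in KO4 to 6.75 in WT1. *Cd8a* over *Cd3e* varied less, from 0.852 in WT3 to 1.27 in KO9. The cells that the transcripts came from were not tested. In bulk RNA of this kind, a change in the number of cells of a type and a change in RNA per cell cannot be told apart. The paper counted T cells by flow cytometry and reported similar numbers in KO and WT marrow. Those counts were not matched to these libraries.

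The 10 genes had a higher mean in KO BM than in WT BM, by 1.41-fold for *Cd3d* to 2.29-fold for *Cd8b1* as a ratio of mean FPKM, and the KO and WT libraries overlapped for each of them. A higher mean of log2(FPKM + 1) in KO BM was found for 10 of the 10 genes, against 38.2% of the 621 genes. The median log2 fold change of the 10 genes was 0.68, against -0.35 for all 621 genes. A log2 fold change is the difference between the KO and WT means of log2(FPKM + 1), a scale that understates the change of low genes. None of the 10 genes passed limma, a linear model whose error is moderated across genes, at a Benjamini-Hochberg adjusted p of 0.05 over the 621 genes, and neither did any other gene (0%). The adjusted p of the 10 genes was 0.598 to 0.602, and the smallest over all genes was 0.517. The shared error was estimated from these 621 genes, all selected for a difference between libraries, which can make it too large. A large adjusted p is therefore not evidence of no difference. At an unadjusted p of 0.05, 1 of the 10 genes was higher in KO BM, against 1.29% of the 621 genes, that is 8 genes higher and 6 lower. The groups did not overlap for 0 of the 10 genes, against 5.96% of the 621 genes with every KO library above every WT library.

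The log2 fold change exceeded the SD within both groups for 7 of the 10 genes, and not for *Cd3d*, *Cd3e* and *Cd4*. The share of the 621 genes for which this held is not given here, so the count is a description only. The libraries within a group were not alike. WT1 and WT3 were both under every KO library for 9 of the 10 genes, *Cd4* being the exception, against 21.1% of the 621 genes. WT7 fell inside the KO range for 10 of the 10 genes and above KO8 for each of them. KO8 was the lowest KO library for 10 genes. For this and for the place of WT7 the share of the 621 genes is not given here either. KO4 was the highest of the 6 libraries for 7 genes and KO9 for the other 3, which were *Cd247*, *Lat* and *Cd6*. Averaged over the 10 genes, log2(FPKM + 1) was 3.16, 2.44 and 3.03 in KO4, KO8 and KO9, against 1.73, 1.90 and 2.79 in WT1, WT3 and WT7.

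**Figure D1:**
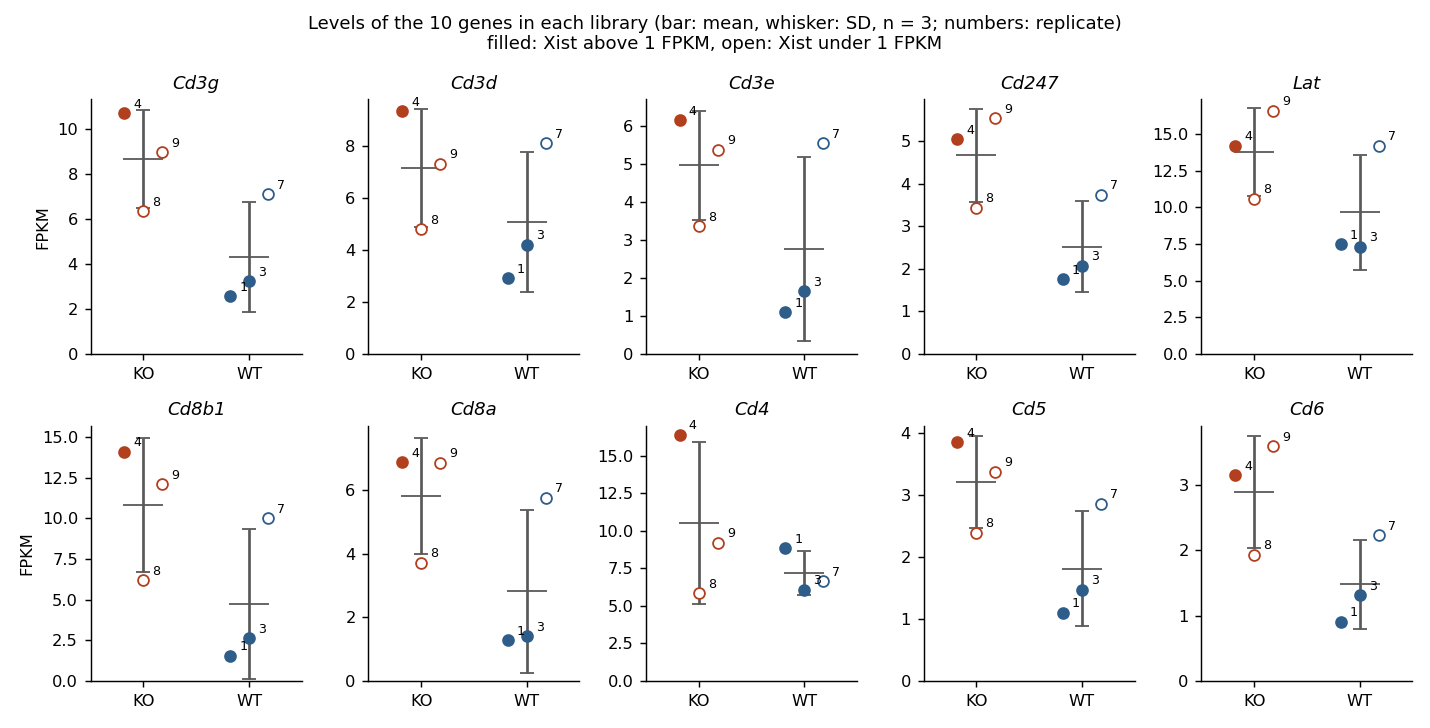
FPKM of each of the 10 genes (vertical axis, from 0, own scale per gene) in the 3 KO libraries, left, and the 3 WT libraries, right, with the group mean as a bar and the SD as a whisker (n = 3). Filled points are libraries with *Xist* above 1 FPKM and open points those under it. Outside *Cd4*, WT1 and WT3 lie under every KO library and WT7 lies among the KO libraries.

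*Cd3g*, *Cd3d* and *Cd3e* encode the gamma, delta and epsilon chains of CD3, which enter the receptor as a gamma-epsilon and a delta-epsilon pair. *Cd3g* had 10.7, 6.33 and 8.97 FPKM in KO4, KO8 and KO9, against 2.58, 3.23 and 7.10 FPKM in WT1, WT3 and WT7. WT1 and WT3 were the low libraries, and WT7 stood above KO8. The mean was 8.66 ± 2.19 FPKM in KO BM and 4.30 ± 2.44 FPKM in WT BM (SD, n = 3 each), a log2 fold change of 0.93 (SE 0.48, limma adjusted p = 0.598). *Cd3e* had 6.15, 3.37 and 5.38 FPKM in KO4, KO8 and KO9, against 1.11, 1.65 and 5.55 FPKM in WT1, WT3 and WT7. Here WT7 exceeded KO8 and KO9 and was 1.12 times the KO mean. Its log2 fold change was 0.81 (SE 0.50, limma adjusted p = 0.598).

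*Cd3d* had 9.33, 4.79 and 7.31 FPKM in KO4, KO8 and KO9, against 2.92, 4.2 and 8.10 FPKM in WT1, WT3 and WT7. WT3 came close to KO8, and WT7 was second only to KO4. The mean was 7.14 ± 2.28 FPKM in KO BM and 5.07 ± 2.70 FPKM in WT BM (SD, n = 3 each), the smallest ratio of the 10 genes, with a log2 fold change of 0.47 (SE 0.49, limma adjusted p = 0.598). *Cd247*, whose zeta chain is a dimer with most of the signalling motifs of the complex and is also used by NK cell receptors, had 5.04, 3.44 and 5.53 FPKM in KO4, KO8 and KO9. It had 1.76, 2.07 and 3.74 FPKM in WT1, WT3 and WT7. WT7 was just above KO8 and under the other KO libraries. The log2 fold change of *Cd247* was 0.71 (SE 0.46, limma adjusted p = 0.598).

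The CD3 genes lie next to each other on chromosome 9 of GRCm38, the assembly that mm10 names. *Cd3g* lies from 44969572 to 44980431 on the minus strand, *Cd3d* from 44981769 to 44987052 on the plus strand and *Cd3e* from 44998735 to 45009663 on the minus strand. The gap is 1337 bases between *Cd3g* and *Cd3d*, which point away from each other, and 11682 bases between *Cd3d* and *Cd3e*. *Cd247* lies apart, on chromosome 1 from 165779952 to 165871153. The neighbours *Cd3g* and *Cd3d* differed in their ratio between the groups. *Cd3d* over *Cd3g* was 0.874, 0.756 and 0.814 in KO4, KO8 and KO9, against 1.13, 1.3 and 1.14 in WT1, WT3 and WT7, both in FPKM. Of 12 ratios of FPKM between the 10 genes this was the only ratio whose groups did not overlap, and it was singled out after its values were seen, with no test. *Cd3e* over *Cd3g* was 0.576, 0.532 and 0.6 in the KO libraries, against 0.431, 0.512 and 0.781 in the WT libraries, with overlap.

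The 3 genes were low and high in the same libraries, as were others of the 10 genes on other chromosomes. The promoters of these neighbours are shown as sequence only, and their part in the levels was not tested. They come from RefSeq on GRCm38.p6 and run from 250 bases before to 50 bases after a start site, read 5′ to 3′ on the strand of the gene. Promoters of 7 of the 10 genes were matched by symbol. Capitals mark AGGAAG or its reverse complement CTTCCT, a core bound by ETS factors, and CAGGTG or CACCTG, an E-box bound by E proteins, and the marked letters do not overlap.
*Cd3g*, chr9:44980382-44980681, minus strand: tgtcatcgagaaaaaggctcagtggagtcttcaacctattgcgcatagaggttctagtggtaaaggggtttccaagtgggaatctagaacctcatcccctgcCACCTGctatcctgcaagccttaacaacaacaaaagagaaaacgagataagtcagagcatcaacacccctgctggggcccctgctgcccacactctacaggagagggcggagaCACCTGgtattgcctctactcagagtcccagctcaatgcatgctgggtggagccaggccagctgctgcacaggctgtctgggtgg
*Cd3d*, chr9:44981536-44981835, plus strand: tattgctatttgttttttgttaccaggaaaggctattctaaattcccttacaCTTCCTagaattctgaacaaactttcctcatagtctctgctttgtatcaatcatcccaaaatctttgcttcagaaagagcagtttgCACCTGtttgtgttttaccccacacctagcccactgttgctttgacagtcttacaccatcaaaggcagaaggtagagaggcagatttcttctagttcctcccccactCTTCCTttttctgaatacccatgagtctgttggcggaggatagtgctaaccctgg
*Cd3e*, chr9:45009562-45009861, minus strand: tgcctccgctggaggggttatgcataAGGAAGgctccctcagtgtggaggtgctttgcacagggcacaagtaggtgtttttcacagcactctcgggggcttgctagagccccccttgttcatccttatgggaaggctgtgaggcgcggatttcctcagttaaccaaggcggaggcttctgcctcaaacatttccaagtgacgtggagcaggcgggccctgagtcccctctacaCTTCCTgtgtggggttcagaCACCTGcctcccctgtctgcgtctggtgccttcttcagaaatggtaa
The E-box letters were in the promoters of *Cd3g*, *Cd3d*, *Cd3e*, *Cd247* and *Cd5*, 5 of the 7, against 20.2% of 32851 mouse promoters of the same length and 20.4% of the 525 promoters matched to the table. The ETS letters were in those of *Cd3d*, *Cd3e*, *Cd247*, *Lat* and *Cd5*, also 5 of the 7, against 35.4% of all promoters and 37.5% of those of the table. Of 3 further motifs, searched on both strands, TGTGGT (for RUNX factors) was in 1 of the 7 (*Lat*) and in 16.8% of all promoters, AGATAA (for GATA factors) in 1 (*Cd3g*) and in 11.2%, and CTTTGA (for TCF factors) in 2 (*Cd247* and *Cd3d*) and in 16%. A match is a run of letters and not a bound site.

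The CD8 chains gave the highest ratios of KO to WT BM among the 10 genes. CD8 on T cells is mostly a pair of an alpha chain, from *Cd8a*, and a beta chain, from *Cd8b1*, while the alpha chain alone is also made by some dendritic cells. *Cd8b1* had 14.1, 6.20 and 12.1 FPKM in KO4, KO8 and KO9, against 1.54, 2.61 and 10 FPKM in WT1, WT3 and WT7. WT1 and WT3 were low, and WT7 lay between KO8 and KO9, so that the highest library was 9.20 times the lowest, the widest range of the 10 genes. The mean was 10.8 ± 4.12 FPKM in KO BM and 4.72 ± 4.62 FPKM in WT BM (SD, n = 3 each). The log2 fold change of 1.27 (SE 0.54, limma adjusted p = 0.598) ranked 5 of the 621 genes from the highest, and *Cd8b1* was the 1 gene of the 10 at an unadjusted p of 0.05.

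*Cd8a* had 6.87, 3.71 and 6.85 FPKM in KO4, KO8 and KO9, against 1.27, 1.41 and 5.76 FPKM in WT1, WT3 and WT7. The pattern over the libraries was that of *Cd8b1*, with WT7 again between KO8 and KO9. The mean was 5.81 ± 1.82 FPKM in KO BM and 2.81 ± 2.55 FPKM in WT BM (SD, n = 3 each), a 2.06-fold ratio and a log2 fold change of 0.99 (SE 0.50, limma adjusted p = 0.598). *Cd8b1* over *Cd8a* was 2.06, 1.67 and 1.76 in KO4, KO8 and KO9, against 1.21, 1.85 and 1.74 in WT1, WT3 and WT7. The beta chain was thus the higher chain per length in 6 of the 6 libraries, and the ratio overlapped between the groups. Both genes lie on chromosome 6, *Cd8b1* from 71322788 to 71337492 and *Cd8a* from 71373427 to 71379171, 35934 bases apart. The promoter of *Cd8a*, given beside those of the CD3 genes, held none of the 5 motifs in this window.
*Cd8a*, chr6:71373177-71373476, plus strand: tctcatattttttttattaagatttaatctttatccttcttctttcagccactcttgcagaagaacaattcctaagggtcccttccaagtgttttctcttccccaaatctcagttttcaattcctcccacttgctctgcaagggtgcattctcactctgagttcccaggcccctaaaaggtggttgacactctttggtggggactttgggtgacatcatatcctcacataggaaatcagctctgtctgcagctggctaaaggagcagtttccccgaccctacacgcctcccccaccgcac

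*Cd4* did not share this pattern. CD4 marks helper and regulatory T cells and, in mice, is also made by some dendritic cells. *Cd4* had 16.4, 5.84 and 9.22 FPKM in KO4, KO8 and KO9, against 8.84, 6.08 and 6.64 FPKM in WT1, WT3 and WT7. KO4 stood above the rest, KO8 was the lowest of the 6 libraries, and WT1, the lowest library for 8 of the other genes, was the highest WT library. The mean was 10.5 ± 5.39 FPKM in KO BM and 7.19 ± 1.46 FPKM in WT BM (SD, n = 3 each), with a log2 fold change of 0.40 (SE 0.49, limma adjusted p = 0.602). It was 0.05 without KO4 and 0.72 without KO8. *Cd4* lies on chromosome 6 from 124864693 to 124888247.

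*Cd4* was set against the CD8 chains within each library, on the log2(FPKM + 1) scale and with the CD8 chains averaged. *Cd4* minus the CD8 chains was 0.67, 0.23 and 0.01 in KO4, KO8 and KO9, against 2.03, 1.26 and -0.18 in WT1, WT3 and WT7. WT1 and WT3 had far more *Cd4* than CD8 transcript, whereas in the KO libraries and WT7 the levels were closer. The mean was 0.31 ± 0.34 in KO BM and 1.04 ± 1.12 in WT BM (SD, n = 3 each), a difference of -0.73 that is smaller than the WT spread. It was -0.24 without WT1 and -1.34 without WT7, and no test was made of a score over chosen genes. As a ratio of FPKM, *Cd4* over *Cd8a* was 2.39, 1.58 and 1.35 in KO4, KO8 and KO9, against 6.94, 4.32 and 1.15 in WT1, WT3 and WT7. *Cd4* over *Cd8b1* was 1.16, 0.942 and 0.762 in the KO libraries, against 5.75, 2.33 and 0.663 in the WT libraries. In both ratios WT7 was the lowest library and WT1 the highest.

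Set against the 4 CD3 chains, zeta included, *Cd4* was higher by 1.03, 0.35 and 0.41 on the log2 scale in KO4, KO8 and KO9, against 1.71, 0.95 and 0.14 in WT1, WT3 and WT7. The mean was 0.60 ± 0.38 in KO BM and 0.94 ± 0.78 in WT BM (SD, n = 3 each). The difference of -0.33 lay within the spread of both groups and was 0.05 without WT1. The CD8 chains minus the CD3 chains were 0.36, 0.12 and 0.40 in KO4, KO8 and KO9, against -0.32, -0.31 and 0.32 in WT1, WT3 and WT7. Here WT1 and WT3 were the only libraries with less CD8 than CD3 transcript. The mean was 0.29 ± 0.15 in KO BM and -0.11 ± 0.37 in WT BM (SD, n = 3 each), a difference of 0.40 with overlap through WT7. *Cd8a* over *Cd3e* in FPKM varied little, with 1.12, 1.10 and 1.27 in the KO libraries and 1.15, 0.852 and 1.04 in the WT libraries. *Cd8b1* over *Cd3g* was 1.32, 0.979 and 1.35 in the KO libraries and 0.596, 0.808 and 1.41 in the WT libraries.

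**Figure D2:**
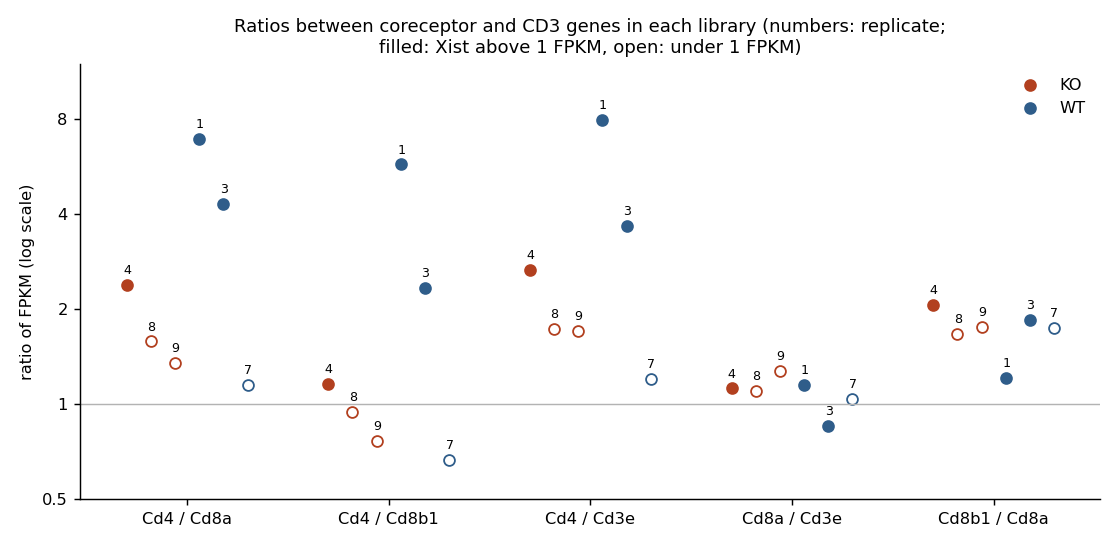
Ratio of FPKM between 2 genes (vertical axis, log scale) in each library, KO libraries left of WT libraries within each ratio, numbered by replicate. *Cd4* over *Cd8a* is highest in WT1 (6.94) and WT3 (4.32) and lowest in WT7 (1.15), with the KO libraries from 1.35 to 2.39, while *Cd8b1* over *Cd8a* stays between 1.21 and 2.06.

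Among the signalling partners, *Lat* encodes the membrane adaptor that is phosphorylated below the receptor and gathers the signalling enzymes, and it is also made by mast cells, platelets and NK cells. *Lat* had 14.2, 10.6 and 16.6 FPKM in KO4, KO8 and KO9, against 7.51, 7.33 and 14.2 FPKM in WT1, WT3 and WT7. WT7 lay at the level of KO4, and the other WT libraries were under KO8. The mean was 13.8 ± 3.01 FPKM in KO BM and 9.68 ± 3.92 FPKM in WT BM (SD, n = 3 each), with a log2 fold change of 0.51 (SE 0.48, limma adjusted p = 0.598). *Lat* varied least of the 10 genes, 2.26-fold between the highest and the lowest library. *Lat* over *Cd3e* was 2.31, 3.15 and 3.08 in the KO libraries, against 6.75, 4.44 and 2.56 in the WT libraries. It lies on chromosome 7 from 126363827 to 126369705.

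*Cd5* and *Cd6* encode related scavenger receptors that sit beside the T-cell receptor and tune its signal, and CD5 is also found on a subset of B cells. *Cd5* had 3.85, 2.39 and 3.38 FPKM in KO4, KO8 and KO9, against 1.10, 1.47 and 2.86 FPKM in WT1, WT3 and WT7. *Cd6* had 3.15, 1.93 and 3.59 FPKM in the KO libraries, against 0.905, 1.31 and 2.23 FPKM in the WT libraries. In both genes WT1 was lowest, and WT7 lay between KO8 and KO9. The log2 fold change was 0.61 for *Cd5* (SE 0.45) and 0.66 for *Cd6* (SE 0.44), each with a limma adjusted p of 0.598. *Cd5* over *Cd6* in FPKM was 1.22, 1.24 and 0.941 in the KO libraries and 1.22, 1.12 and 1.28 in the WT libraries. The genes are neighbours on chromosome 19, *Cd5* from 10718107 to 10739026 and *Cd6* from 10789339 to 10830062, with 50312 bases between them. The mean of *Lat*, *Cd5* and *Cd6* minus that of the CD3 chains differed by -0.14 on the log2 scale between KO and WT BM.

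The likeness between the 10 genes was measured as the root mean square difference between centred log2(FPKM + 1) profiles over the 6 libraries, with each gene set against the mean of the other 9. *Cd3g* was closest to the others at 0.12, followed by *Cd5* at 0.13 and *Cd247* at 0.14. *Cd4* was farthest at 0.55, then *Cd8b1* at 0.47 and *Cd8a* at 0.26. For *Cd8b1* the distance went with a wider range, its SD over the libraries being 1.05, the highest of the 10 genes. For *Cd4*, with an SD of 0.50, it went with another order of the libraries.

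The libraries also differed in *Xist* within each genotype. *Xist*, the noncoding RNA of the inactive X chromosome in female cells, was 74.6 FPKM in KO4 and under 1 FPKM in KO8 (0.0192) and KO9 (0.0155), against 113 FPKM in WT1, 98.2 FPKM in WT3 and 0.00848 FPKM in WT7. The labels give no sex. Among libraries with *Xist* above 1 FPKM, KO4 minus the mean of WT1 and WT3 was 0.85 to 2.32 on the log2 scale, positive for 10 of the 10 genes, against 39% of the 621 genes. Among libraries with *Xist* under 1 FPKM, the mean of KO8 and KO9 minus WT7 was -0.39 to 0.18, positive for 4 of the 10 genes, against 62.5% of the 621 genes. The median of the 10 genes was 1.14 above and -0.05 under the division, against -0.29 and 0.09 for all genes. *Cd8b1* had 2.32 above and -0.18 under it, and *Cd3e* 1.59 and -0.31.

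The difference between those 2 values was tested as an interaction of genotype with *Xist* above 1 FPKM in limma, with 2 residual degrees of freedom, a fit chosen after seeing the data. The interaction was 2.50 for *Cd8b1* (SE 0.67, limma adjusted p = 0.326) and 1.90 for *Cd3e* (SE 0.51, limma adjusted p = 0.326). None of the 10 genes passed at an adjusted p of 0.05, while 3 of the 621 genes did. At an unadjusted p of 0.05, 6 of the 10 genes had a positive interaction (*Cd3d*, *Cd3e*, *Cd3g*, *Cd8a*, *Cd8b1* and *Cd5*), against 4.19% of the 621 genes. KO4 is the only KO library above the division and WT7 the only WT library under it, so what moves with *Xist* and what belongs to either library alone cannot be told apart. With a term for *Xist* in the model, the adjusted p of the 10 genes was 0.705.

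Leaving out 1 library moved these values both ways. Without WT1 the log2 fold change was 0.84 for *Cd8b1*, 0.72 for *Cd8a*, 0.70 for *Cd3g*, 0.49 for *Cd3e* and 0.20 for *Cd3d*, and the limma adjusted p of the 10 genes was 0.95. Without WT7 it was 1.90 for *Cd8b1*, 1.50 for *Cd8a*, 1.29 for *Cd3g*, 1.3 for *Cd3e*, 0.81 for *Cd3d* and 0.79 for *Lat*, with limma adjusted p of 0.104 to 0.523 over the 10 genes. WT7 is the WT library that lay inside the KO range, so the values without it restate that WT1 and WT3 were low. Without KO4 it was 0.28 for *Cd3d*. None of the 10 genes passed the adjusted p of 0.05 with any library left out.

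**Figure D3:**
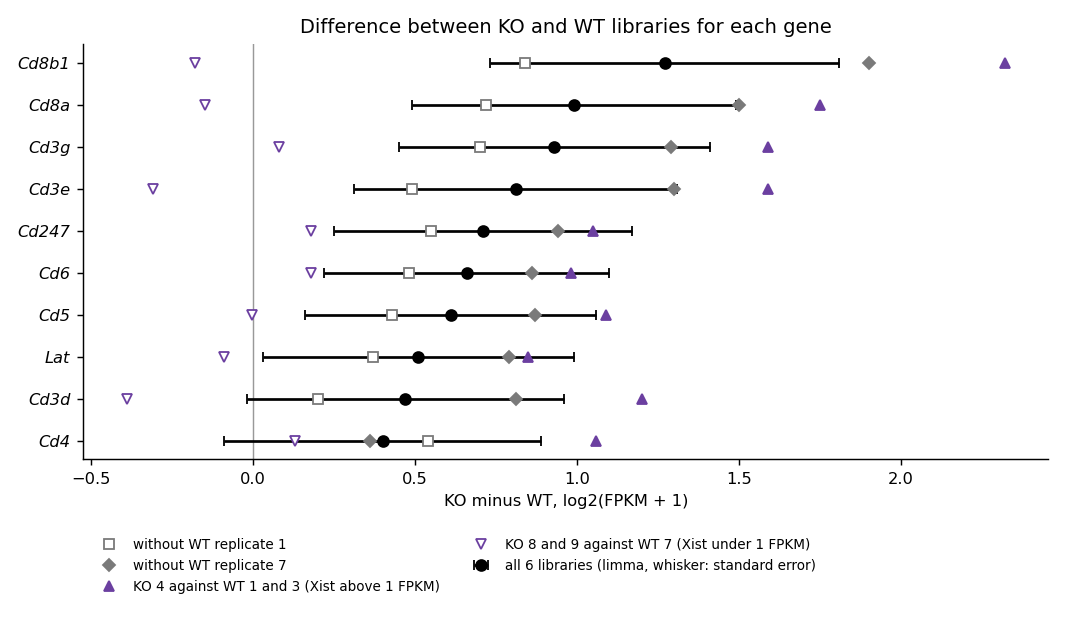
Difference between KO and WT BM in log2(FPKM + 1) (horizontal axis) for each gene, in order of size. Circles are all 6 libraries with the limma standard error, squares leave out WT1, diamonds leave out WT7, filled triangles set KO4 against WT1 and WT3, and open triangles set KO8 and KO9 against WT7. The filled triangles run from 0.85 to 2.32 and the open triangles from -0.39 to 0.18.

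Outside the 10 genes, the most similar profiles over the 6 libraries were found by the root mean square difference from the mean centred profile of the 10 genes, among 565 genes with a mean of at least 1 FPKM. They were *Tcf7* at 0.08, a transcription factor of T-cell identity, and *Thy1* at 0.09, the surface glycoprotein of mouse T cells, followed by the Tec-family kinase *Txk* at 0.11, the fatty acid amide hydrolase *Faah* at 0.11, the NK cell receptor *Klra8* at 0.12 and *Sidt1* at 0.12. The median over the candidates was 0.91. *Tcf7* had 13.6, 6.61 and 12.4 FPKM in KO4, KO8 and KO9, against 3.83, 4.65 and 9.61 FPKM in WT1, WT3 and WT7. *Thy1* had 15.9, 9.71 and 16.5 FPKM in the KO libraries, against 5.39, 7.47 and 13.2 FPKM in the WT libraries. Both were lowest in WT1 and WT3, as the CD3 chains were, with WT7 between KO8 and KO9.

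Other genes of the pathway and of the cell types that share it were read from fixed lists, and in none of them did a gene pass the adjusted p of 0.05. Of 37 receptor signalling genes 3 were among the 621 genes, all with a higher mean in KO BM, among them the kinase *Txk* (log2 fold change 0.63) and the adaptor *Sh2d1a* (0.48). Of 15 genes of naive and recirculating T cells 3 were among the 621 genes, *Thy1* (0.68), *Tcf7* (0.79) and *Ms4a4b* (0.55), and their summed level was 59.1, 34.5 and 53.5 FPKM in KO4, KO8 and KO9, against 22.4, 27.6 and 42.3 FPKM in WT1, WT3 and WT7. Of 18 genes of regulatory and memory T cells, *Il2rb* (0.44) and *Il2ra* (-0.83), chains of the interleukin-2 receptor, were found and differed in sign. Of 20 costimulatory and inhibitory receptors only *Slamf6* (-0.41) was found, at 17.1, 22.8 and 20.9 FPKM in the KO libraries, against 42.8, 27.7 and 16.6 FPKM in the WT libraries, highest in WT1 and WT3 where the CD3 chains were lowest. The summed B-cell genes given below had the same order of libraries, and the cells that *Slamf6* came from were not tested. The 10 listed chains of the receptor itself were not analysed here.

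NK cells share *Cd247* and *Lat* with T cells, and 6 of 26 NK and cytotoxic genes were among the 621 genes, all with a higher mean in KO BM and a median log2 fold change of 0.54. *Ccl5*, a chemokine of cytotoxic and memory cells, had 67.1, 39.4 and 52.8 FPKM in KO4, KO8 and KO9, against 17.9, 27.3 and 38.0 FPKM in WT1, WT3 and WT7. Its groups did not overlap, unlike those of *Ctsw* (0.59), *Klra8* (0.76) and the other 3, that is 1 of 6 against 5.96% of the 621 genes. The summed level of the 6 genes was 55.5 to 94.1 FPKM in KO BM and 27.2 to 57.6 FPKM in WT BM. Its part in the levels of *Cd247* and *Lat* was not tested.

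Markers of other cells also varied over the libraries, and their part in the result was not tested. Of 23 dendritic cell genes 5 were found. The 4 with a higher mean in KO BM were all MHC class II genes, *Cd74* (0.68), *H2-Aa* (0.93), *H2-Ab1* (0.81) and *H2-Eb1* (1.04). The groups of those 4 did not overlap, that is 4 of 5 against 5.96% of the 621 genes. The only other gene found, *Spib* (-0.53), went the other way. It had 118, 147 and 127 FPKM in KO4, KO8 and KO9, against 299, 228 and 98.9 FPKM in WT1, WT3 and WT7. The cells that these genes came from were not tested. The 5 genes summed to 1660 to 1970 FPKM in KO BM and 1020 to 1530 FPKM in WT BM. Of 17 monocyte and macrophage genes *Cd163* (0.73) and *Timd4* (0.10) were found, with sums of 10.4 to 12.3 FPKM in KO BM and 6.20 to 8.24 FPKM in WT BM. The groups of *Cd163* did not overlap, that is 1 of 2 against the same 5.96%. The 16 of 20 B-cell genes, among them *Cd79b* (-0.33) and *Vpreb3* (-0.55), had a lower mean in KO BM for 13 and summed to 850, 1130 and 965 FPKM in KO4, KO8 and KO9, against 1880, 1270 and 764 FPKM in WT1, WT3 and WT7. The other 3 had a higher mean in KO BM and WT1 as their lowest library, as most of the 10 genes had. They were *Jchain* (1.3), *Fcer2a* (0.85) and *Cr2* (0.82), named after their values were seen. The groups of *Fcer2a* and *Cr2* did not overlap, that is 2 of the 16 against the same 5.96%. The 10 of 12 osteoblast and stromal genes, led by *Col1a1* (-1.35), *Col1a2* (-1.28) and *Bglap* (-1.16), had a lower mean in KO BM for 10 and summed to 615, 114 and 135 FPKM in the KO libraries, against 1260, 791 and 109 FPKM in the WT libraries, high where *Xist* was above 1 FPKM. Of 15 mast cell and megakaryocyte genes *Ppbp* (-0.82) and *Gp1bb* (-0.26) were found, with sums of 9.31 to 41.7 FPKM in KO BM and 25.7 to 35.3 FPKM in WT BM. No marker found was at 0 in any library.

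**Figure D4:**
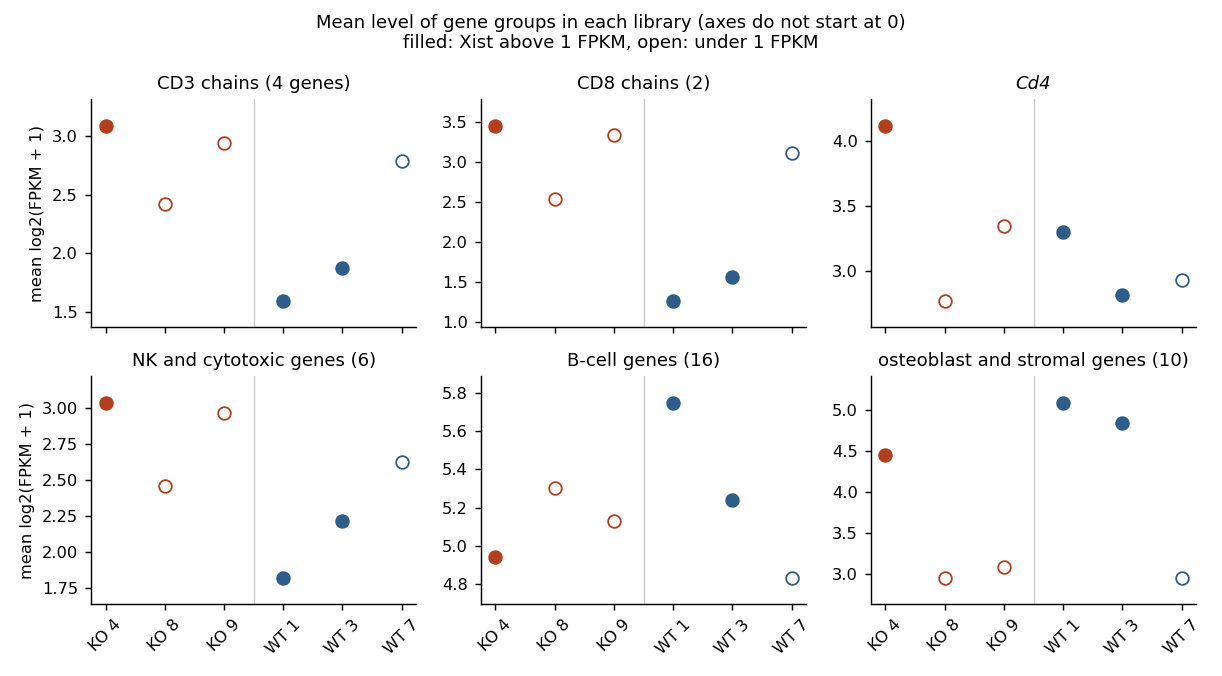
Mean log2(FPKM + 1) of gene groups in each library (vertical axes with own scales that do not start at 0), KO libraries left of the line and WT libraries right, filled where *Xist* is above 1 FPKM. CD3 chains, CD8 chains and NK genes are lowest in WT1 and WT3, *Cd4* is highest in KO4, and osteoblast and stromal genes are high in KO4, WT1 and WT3 and low in the libraries with *Xist* under 1 FPKM.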

How the data were processed

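BM mRNA-seq of 3 KO and 3 WT libraries was analysed from the deposited table of 621 genes. The authors aligned reads to mm10 with HISAT version 2.0.5 and made FPKM per gene with StringTie version 1.3.3b, according to the methods of the paper and to the submitters' processing notes. Also deposited by the authors were log2 values made from FPKM by a normalization not given in the sources used here, and these served as an alternative only. The authors' signed folds and enrichment tables were not used. No per-library column was left unmatched. The depth of the libraries is unknown, so no counting interval is given.

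KO was compared with WT on log2(FPKM + 1) over the 6 libraries by limma 3.58.1 (R 4.3.3), two-sided. Its variance prior followed the intensity (4 residual and 17.8 prior degrees of freedom), and p-values were adjusted by Benjamini-Hochberg over 621 genes, threshold 0.05. The filter, a value above 0 FPKM in 3 or more libraries, left out no gene. The step was tested on simulated data. Differences between gene groups and ratios are descriptions without a test. Summaries were made in Python 3.11.15 (pandas 2.3.3, numpy 2.4.6).

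The 10 genes and the gene lists were chosen with earlier results of these data known. Genes named are the 10 genes, the 3 found members of each list with the highest mean FPKM, the 6 genes with the most similar profile among those with a mean of at least 1 FPKM, and *Xist*, except that 2 of the list genes are not reported here. *Atp6v0c-ps2*, *Jchain*, *Fcer2a*, *Cr2*, *H2-Eb1* and *Spib* fall outside this rule and were named after their values were seen. Coordinates and promoters are those of RefSeq on GRCm38.p6. Promoters of *Cd4*, *Cd8b1* and *Cd6* were not analysed here.

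The alternatives were a pseudocount of 0.1, filters on low values, quantile normalization, scaling to the same median, the deposited log2 values, a prior without trend, a threshold of 0.01, each library left out in turn, and libraries divided by *Xist* at 1 FPKM. The interaction with *Xist* and the coreceptor differences with *Cd8a* or *Cd8b1* alone, or without *Cd247*, were added after seeing the data.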

Additional observations from a re-analysis of the deposited data

How the results depend on the processing

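The count of genes at an adjusted p of 0.05 was 0 with 6 libraries and 0 to 1 with a library left out, being 1 without KO4 (*Xist*) and 1 without KO9 (*Atp6v0c-ps2*), and none of the 10 genes in either. Of 160 alternative fold changes of the 10 genes, 16 for each, 154 kept a positive sign, with a limma adjusted p of 0.104 to 0.959 over those with a test. The 154 include those under changed filters and without the trend, which cannot move a fold change and kept the sign by construction. The other 6 turned negative among libraries with *Xist* under 1 FPKM, where KO8 and KO9 stand against WT7 alone: *Cd3d* at -0.39, *Cd3e* at -0.31, *Cd8a* at -0.15, *Cd8b1* at -0.18, *Lat* at -0.09 and *Cd5* at -0.0037. In the same libraries *Cd4* minus the CD8 chains was 0.30 (KO minus WT, against -0.73 in all libraries), *Cd4* minus the CD3 chains 0.24 (against -0.33) and the CD8 minus the CD3 chains -0.06 (against 0.40). The cause was not tested. Scaling moved the median of all genes from -0.35 to -0.18 by quantile normalization and to -0.22 by median scaling, and that of the 10 genes to 0.86 and 0.81. Both were computed on the 621 selected genes alone, of which 38.2% had a higher mean in KO BM. The larger values of the 10 genes are thus no added evidence. With 3 libraries a group and an unknown depth, values of low genes such as *Cd6* carry an error that was not measured. No paired analysis was possible because the KO and WT groups share no replicate number.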
